A study of Arabidopsis thaliana with 4 samples.

Results

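The deadenylase genes of Arabidopsis thaliana described here are 7 genes of the CAF1 type, among them CAF1a (AT3G44260) and CAF1b (AT5G22250), and AHG2 (AT1G55870), which encodes the poly(A)-specific ribonuclease PARN. These 8 genes were taken by identifier, as members of their families, out of 27654 genes in the deposited table. They were chosen with earlier results of these data known, and all 8 passed the filter on low values. They were measured in RNA from whole seedlings of the Columbia ecotype in 2 libraries of fip1-2, a mutant named for the polyadenylation factor FIP1, and 2 libraries of an SKP2B::GUS control line, a promoter reporter line that the series' design text calls wild type. The nature of the fip1-2 lesion is not in the labels, nor is whether the mutant carries the reporter, and the growth time in Murashige and Skoog medium lacks its unit. Both a poly(A) tag method and fragmented oligo(dT)-selected mRNA are named. Separate cultures are not stated for the replicates, and p-values then measure only the spread between these libraries, which may be technical.

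Deadenylases shorten the poly(A) tail that cleavage and polyadenylation factors such as FIP1 help to make, and tail shortening is the usual first step of cytoplasmic mRNA decay. CAF1 nucleases work in the CCR4-NOT complex, where a NOT scaffold holds them beside CCR4 nucleases and RNA-binding proteins bring the complex to chosen transcripts. CAF1a and CAF1b are known in Arabidopsis as genes switched on by wounding, other stresses and pathogens, with a role in defence. PARN is a separate enzyme of the same nuclease superfamily, and loss of AHG2 function makes germinating seeds hypersensitive to abscisic acid.

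Each library held 20874114 to 21104606 reads assigned to genes. The transcript of FIP1 itself (FIP1[V], AT5G58040) stood at 5217 and 5145 normalised counts in fip1-2 and at 1796 and 1912 in control, a total over the gene that shows neither the presence nor the loss of a working product. Shoot and root markers were both detected, as the label of whole seedlings says. The sum of 4 shoot markers was 440635 and 460931 in fip1-2 and 327435 and 326215 in control. Of these 4, 3 were called higher in fip1-2 (limma adjusted p under 0.05), a call made for 27.0% of all genes tested. The sum of 4 root markers was 2629 and 2429 in fip1-2 and 1684 and 1667 in control, again with 3 higher in fip1-2. Of 7 seed markers 6 were tested and all 6 were higher in fip1-2. Their 7-gene sum was 4983 and 1916 in fip1-2 and 254 and 63.1 in control, where the seed storage gene CRU2 had no read. The part of these differences in the results below was not tested, and in such bulk samples fewer cells of a type and less RNA per cell cannot be told apart.

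The stress-induced pair CAF1a and CAF1b fell in fip1-2, CAF1a with the larger change, while AT1G06450, a distant relative, rose 3.63-fold. AT1G80780, AT5G10960 and AT2G32070, also of the CAF1 type, fell by small amounts, and AT1G15920 and AHG2 did not pass the test. In all, 1 of the 8 genes was higher and 5 were lower in fip1-2 (limma adjusted p under 0.05), against 27.0% higher and 26.8% lower among the 19931 genes tested. Their median log2 fold change was -0.38, beside 0.00 over all genes tested. Fold changes on the log2 scale were computed from log2(normalised count + 2).

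CAF1a stood at 98.3 and 115 normalised counts in the fip1-2 libraries and at 866 and 525 in the control libraries. The groups were far apart, but the control libraries also differed widely from each other. The mean was 107 ± 11.9 in fip1-2 and 695 ± 241 in control (SD, n = 2 each), so the transcript was 84.6% lower in the mutant, with a log2 fold change of -2.64 ± 0.17 SE (limma adjusted p = 1.28e-08). Its SE depended on the variance model. With robust variance the SE was 0.31 (limma adjusted p = 0.00852, the highest of the 14 alternatives), and with DESeq2 the SE was 0.39. Only 0.201% of the genes tested had a lower log2 fold change. Control replicate 1 was 1.65 times as high as control replicate 2, a gap reached by 0.296% of the 15180 genes with a mean of at least 100. Without control replicate 1 the log2 fold change was -2.28 and without control replicate 2 it was -3.00. A fit with a single control library holds no spread between controls, so it cannot test the effect of this gap.

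CAF1b, the closest relative of CAF1a, was at 93.2 and 94.4 normalised counts in fip1-2 and at 199.8 and 207 in control. Replicates lay close together and the groups did not overlap. The mean was 93.8 ± 0.868 in fip1-2 and 203 ± 4.89 in control (SD, n = 2 each), a fall of 53.8% with a log2 fold change of -1.10 ± 0.13 SE (limma adjusted p = 4.51e-06). CAF1a and CAF1b were thus the members called lower with a log2 fold change beyond -1, a size and call reached by 3.76% of all genes tested.

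The fall was unequal within the pair. CAF1a reads were 1.05 and 1.22 times those of CAF1b in the fip1-2 libraries and 4.33 and 2.54 times in the control libraries. The transcripts are of nearly the same length, 1339 and 1323 bases, so CAF1a was well above CAF1b in control and close to it in fip1-2. With 2 libraries against 2 an exact permutation test of this ratio cannot go below p = 0.333, and none was made. In the coding sequences of the TAIR10.1 annotation the pair is identical over 79% of alignment columns, with gaps counted as differences. The longest stretch of exact identity is 32 bases, and reads that fall in such stretches could match both genes. How the counting treated such reads is not known here.

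**Figure D1:**
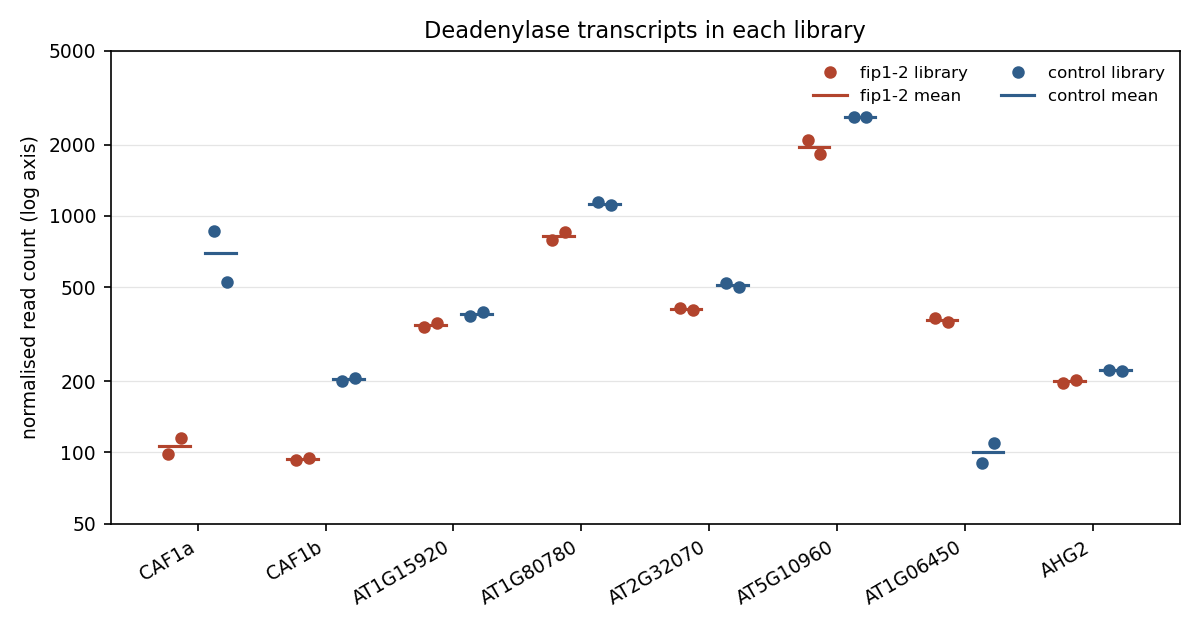
Normalised read counts of the 8 deadenylase genes on a log axis, with points for single libraries and lines for group means, fip1-2 in red and control in blue (2 libraries each). CAF1a and CAF1b are low in both fip1-2 libraries, AT1G06450 is high in both, and the wide gap between the control points of CAF1a, 866 and 525, is visible.

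AT1G06450 moved the other way. It stood at 369.8 and 356 normalised counts in fip1-2 and at 90.3 and 109.7 in control, and every fip1-2 value was above every control value. The mean was 363 ± 9.77 in fip1-2 and 100 ± 13.7 in control (SD, n = 2 each), with a log2 fold change of 1.85 ± 0.12 SE (limma adjusted p = 1.57e-08). Rises called at a log2 fold change of 1 or more made up 4.64% of the genes tested. The gene encodes a protein with the CAF1 ribonuclease domain in the reference annotation and has no name there. By coding sequence it stands apart from the other CAF1-type genes described here, with 41% to 43% identity to each of them. Its identity to AT1G27820, a CAF1-like gene with a single read in these libraries, is 52.1%. Gaps count as differences in these values. Part of the distance can be length, as its coding sequence has 1083 bases and those of the other CAF1-type members 828 to 861.

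On the opposite strand AT1G06450 overlaps ACD32.1 (AT1G06460), a gene with many more reads, and no strand-marking step is described. ACD32.1 had 6460 and 6589 normalised counts in fip1-2 and 6291 and 6504 in control, groups that overlap (log2 fold change 0.03 ± 0.05 SE, limma adjusted p = 0.643). Reads of the shared stretch could belong to either gene. How the counting treated them is not known here, and their part in the rise of AT1G06450 was not tested.

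The remaining CAF1-type genes changed far less. AT5G10960 stood at 2094 and 1822 normalised counts in fip1-2 and at 2616 and 2624 in control, with a log2 fold change of -0.42 ± 0.06 SE (limma adjusted p = 5.25e-05). AT1G80780 stood at 789.8 and 856 in fip1-2 and at 1143 and 1113 in control, with a log2 fold change of -0.46 ± 0.06 SE (limma adjusted p = 2.91e-05). Both genes are annotated with the CAF1 ribonuclease domain and carry no name, and for each the fip1-2 libraries were below both control libraries. AT2G32070, whose coding sequence is 77.1% identical to that of AT1G80780, was at 409.7 and 402 in fip1-2 and at 521 and 503 in control (log2 fold change -0.33 ± 0.08 SE, limma adjusted p = 0.00185).

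AT1G15920 had 339 and 351 normalised counts in fip1-2 and 379 and 391 in control. Its groups did not overlap, but the difference of -0.16 ± 0.08 SE on the log2 scale did not pass (limma adjusted p = 0.124). Groups with every fip1-2 value below every control value are common here, at 39.0% of the genes tested, and 7 of the 8 members were of this kind. The opposite order, seen in AT1G06450, was found in 38.2%.

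AHG2, the PARN gene, was at 197 and 202 normalised counts in fip1-2 and at 224 and 221 in control. The mutant libraries were slightly below the control libraries, by 10.4% in the mean, and the log2 fold change of -0.16 ± 0.10 SE did not pass (limma adjusted p = 0.22). After correction for transcript length and GC content the log2 fold change was -0.33 and passed (limma adjusted p = 0.0151). The adjusted p of its 14 alternatives spanned 0.0151 to 0.56, and at 2735 bases AHG2 has the longest transcript of the 8. AHG2 overlaps AT1G55880 on the opposite strand. That gene had 354 and 340.4 counts in fip1-2 and 311 and 279 in control, and reads of the shared stretch cannot be told apart.

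**Figure D2:**
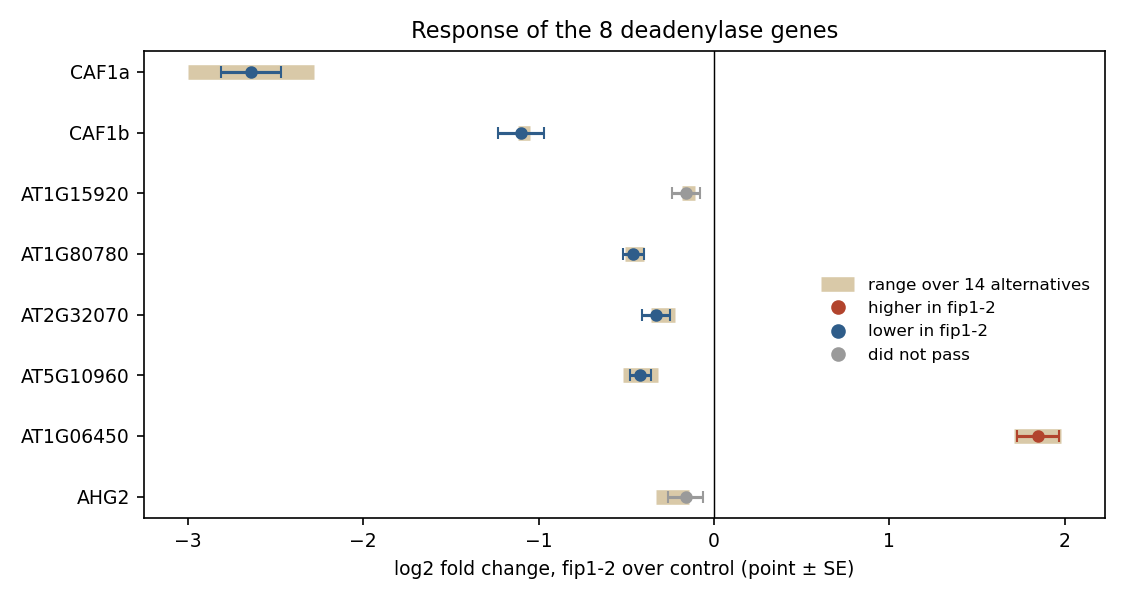
Log2 fold change of each deadenylase gene, fip1-2 over control, with points and standard errors from limma and pale bars for the range over 14 alternative analyses. CAF1a at -2.64 and AT1G06450 at 1.85 stand away from the other genes, and the bar of CAF1a, from -3.00 to -2.28, is the widest.

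Added together, the 7 CAF1-type genes had fewer reads in the mutant. Their sum was 4194 and 3997 normalised counts in fip1-2 and 5815 and 5473 in control, or 4095 ± 139 and 5644 ± 242 (SD, n = 2 each), 27.4% lower in fip1-2. With CAF1a left out the sum was 4095 and 3882 in fip1-2 and 4949 and 4948 in control, so the deficit was not that of CAF1a alone. The exact permutation test of a single sum cannot go below p = 0.333 in this design.

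The order of the genes changed as well. On a scale of normalised reads per kb of the longest annotated transcript, which assumes reads from the whole transcript, AT5G10960 was the most abundant in both groups at 931 ± 91.2 in fip1-2 and 1246 ± 2.54 in control (SD, n = 2 each), and AT1G80780 came next at 529 ± 30.2 in fip1-2 and 725 ± 13.6 in control. Below them the order in fip1-2 was AT2G32070 at 304, AT1G06450 at 263, AT1G15920 at 196, CAF1a at 79.7, AHG2 at 73.0 and CAF1b at 70.9 reads per kb. In control it was CAF1a at 519, AT2G32070 at 384, AT1G15920 at 218, CAF1b at 154, AHG2 at 81.4 and AT1G06450 at 72.5 reads per kb.

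Neighbours in these orders were not always apart. In fip1-2 the 2 library values of CAF1a, 73.4 and 86.0 reads per kb, overlapped those of AHG2, 71.9 and 74.0. In control CAF1a, at 646 and 392 reads per kb, was above AT2G32070, at 391 and 377, but the lower CAF1a value barely exceeded the higher AT2G32070 value. AHG2, at 81.9 and 80.9 reads per kb in control, was just above AT1G06450, at 65.4 and 79.5.

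As a share of the summed reads per kb of the 7 CAF1-type genes, CAF1a made up 3.04% and 3.69% in fip1-2 and 18.8% and 12.3% in control. The share of AT1G06450 was 11.1% in both fip1-2 libraries and 1.90% and 2.49% in control. AT5G10960 held the largest share in every library, 41.2% and 37.2% in fip1-2 and 36.1% and 39.1% in control, and its groups overlapped. Shares must add up, so a lower share of CAF1a raises those of the others.

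**Figure D3:**
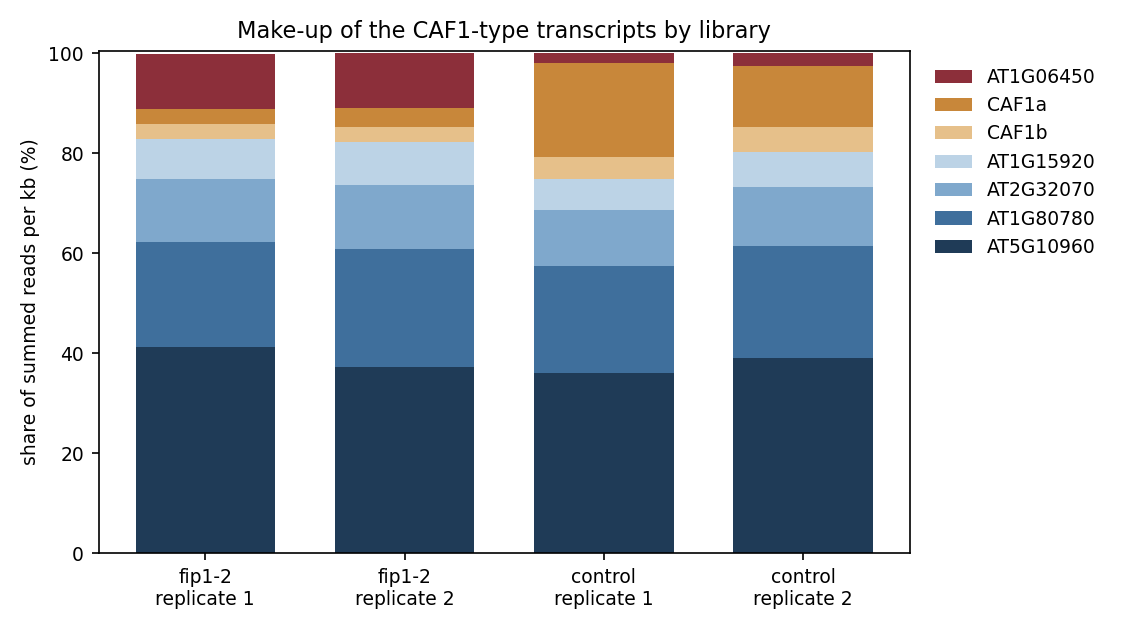
Share of each of the 7 CAF1-type genes in their summed reads per kb of transcript, in percent, as stacked bars for the 4 libraries with fip1-2 on the left. The CAF1a band is thin in fip1-2, at 3.04% and 3.69%, and wide in control, at 18.8% and 12.3%, while the AT1G06450 band is wider in fip1-2.

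Of 4 other CAF1-like genes, AT1G27820, AT1G27890, AT1G61470 and AT3G44240, none passed the filter of a mean of 10. AT1G61470 had 16 and 5 reads in the fip1-2 libraries and 9 and 10 in the control libraries. The other 3 had 2 reads or fewer over the 4 libraries, too few for any comparison.

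The genes next to CAF1a in the genome had no read in any library, whether upstream (AT3G44261) or downstream (CYP71B38). The gene upstream of CAF1b, MS1, had no read either, and OFP10, downstream on the other strand, was at 4.10 and 2.08 normalised counts in fip1-2 and at 7.69 and 10.7 in control. AT1G80780, which fell, lies between genes that rose, with a log2 fold change of 0.35 for PDE318 upstream (limma adjusted p = 0.000501) and of 0.45 for FDM5 downstream (limma adjusted p = 9.73e-06). Both lie on its strand. AT2G32060, downstream of AT2G32070 on the same strand, fell as AT2G32070 did, with a log2 fold change of -0.30 (limma adjusted p = 0.0114). PUR ALPHA-1, upstream of AT2G32070, did not pass (log2 fold change 0.07, limma adjusted p = 0.299).

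Genes of the CCR4 type, the nuclease class that partners CAF1 in the complex, showed little of this. The annotation used does not say which of them act there. Of 6 genes listed 5 were tested, 1 rose and 4 did not pass, with a median log2 fold change of 0.06. Over all genes tested 27.0% were called higher and 26.8% lower. All are annotated as DNAse I-like proteins, the nuclease fold of CCR4, and have no gene name in the reference. The most abundant, AT3G58560, had 1656 and 1655 normalised counts in fip1-2 and 1549 and 1552 in control (log2 fold change 0.09 ± 0.05 SE, limma adjusted p = 0.145). AT3G58580 was at 501 and 509 in fip1-2 and at 479 and 486 in control (log2 fold change 0.06 ± 0.07 SE, limma adjusted p = 0.482). AT5G11350 rose by 0.32 on the log2 scale (limma adjusted p = 0.00486) but did not pass with DESeq2 (adjusted p = 0.0718) or after the length and GC correction (log2 fold change 0.11, limma adjusted p = 0.291).

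Genes of the NOT scaffold split in both directions, with 3 higher, 5 lower and 3 not called among 11, beside 27.0% higher and 26.8% lower over all genes tested, and a median log2 fold change of -0.03. The count was 2 higher and 2 lower with DESeq2, 2 higher and 7 lower after the length and GC correction, and 3 higher and 3 lower without fip1-2 replicate 1. AT1G02080, listed here for the large central scaffold protein and annotated as a transcription regulator, stood at 4629 and 4721 normalised counts in fip1-2 and at 2375 and 2556 in control. Its log2 fold change of 0.92 ± 0.05 SE (limma adjusted p = 3.67e-09) was 0.30 after the length and GC correction. AT5G18230, of the NOT2, NOT3 and NOT5 family, rose by 0.31 on the log2 scale (limma adjusted p = 0.000185), and after that correction it was at 0.09 and did not pass. AT3G20800, for an Rcd1-like subunit, was at 387 and 429.7 in fip1-2 and at 538 and 513 in control, a log2 fold change of -0.36 (limma adjusted p = 0.00158).

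Neither gene listed beside PARN passed. AT2G17580, annotated in the polynucleotide adenylyltransferase family, had 218 and 220 normalised counts in fip1-2 and 220 and 235 in control (log2 fold change -0.05 ± 0.10 SE, limma adjusted p = 0.689). AT3G25430, of the same nuclease superfamily as AHG2, was at 119.9 and 105 in fip1-2 and at 135 and 114 in control (limma adjusted p = 0.43).

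The proteins that coat the poly(A) tail in the cytoplasm are the substrate partners of deadenylases. Of their 8 genes 4 were tested, 3 rose and 1 fell, beside 27.0% higher and 26.8% lower over all genes tested. With DESeq2, and likewise after the length and GC correction, 1 was called higher and 1 lower. The largest rise, that of PAB7 (log2 fold change 1.27), rested on 21 and 23 reads in fip1-2 and 9 and 8 in control. PAB7 did not pass with DESeq2 (adjusted p = 0.0825). The call of PAB4 (log2 fold change 0.13) did not hold under either, nor when any library was left out, and after the correction it was at -0.04. PAB2, the most abundant, was at 16669 and 17083 normalised counts in fip1-2 and at 13782 and 13671 in control, and its log2 fold change of 0.30 became 0.02 after the length and GC correction and no longer passed. PAB8 fell, with 1709 and 1795 in fip1-2 and 2309 and 2308 in control (log2 fold change -0.40 ± 0.05 SE, limma adjusted p = 1.84e-05).

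RNA-binding proteins of the Pumilio and tandem zinc finger types recruit deadenylases to target mRNAs in yeast and animals. Of 5 Pumilio genes analysed here PUM5 rose and 4 did not pass, but after the length and GC correction 2 were called lower, PUM2 at -0.20 and PUM3 at -0.28 on the log2 scale. PUM5 had 2248 and 2096 normalised counts in fip1-2 and 1495 and 1529 in control (log2 fold change 0.52 ± 0.06 SE, limma adjusted p = 2.13e-06). Of 10 tandem zinc finger genes tested 7 fell, 2 rose and 1 did not pass, beside 26.8% lower and 27.0% higher over all genes tested, with a median log2 fold change of -0.24. The count was 5 lower and 2 higher with DESeq2, and 8 lower and 1 higher after the length and GC correction. The stress-inducible CZF1 was at 572 and 602 in fip1-2 and at 807 and 798 in control (limma adjusted p = 5.1e-05, log2 fold change -0.45 ± 0.07 SE). The log2 fold change of SZF1, of the same family, was -0.41 (limma adjusted p = 0.00048). AT5G44260, with the smallest p of the list, was at -0.40 (limma adjusted p = 1.88e-05). The largest change of the list was a rise, that of SOM at 1.79, from 42 and 20 reads in fip1-2 and 7 and 8 in control. AT5G12850 also rose, by 0.25 on the log2 scale, but was at 0.00 after the length and GC correction and did not pass.

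**Figure D4:**
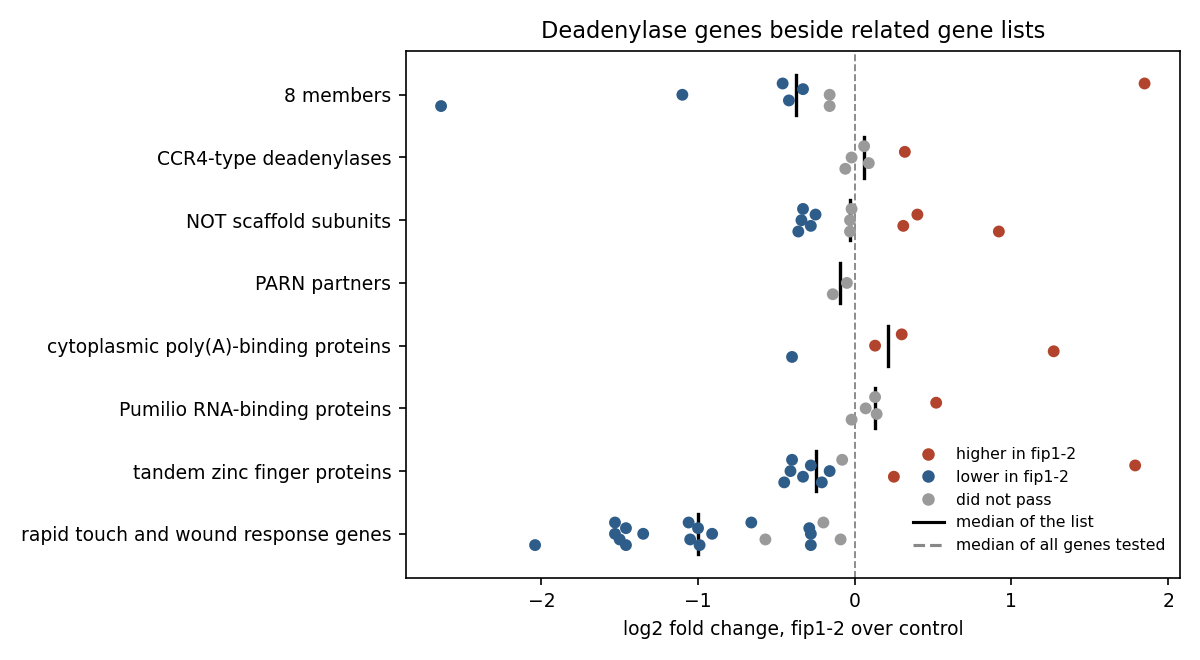
Log2 fold change, fip1-2 over control, of every tested gene of the deadenylase members and of 7 related lists, coloured by limma call, with the median of each list as a black bar and that of all genes as a dashed line. The touch and wound genes lie to the left with a median of -1.0, and the CCR4-type genes lie near 0 with a median of 0.06.

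CAF1a and CAF1b fell together with other genes of rapid stress responses. A list of 19 genes known to be induced within minutes by touch, wounding or elicitors, with no member in it, had 16 lower, 0 higher and 3 not called, against 26.8% lower among all genes tested, and a median log2 fold change of -1.0. The 3 not called were TCH4 (log2 fold change -0.09), WRKY53 (-0.20) and CML37 (-0.57). Counts of 16 lower were also found with edgeR and DESeq2. The list was chosen with earlier results of these data known, so its count is a description and not a test. In 18 of the 19 genes both fip1-2 libraries were below both control libraries, an order found in 39.0% of all genes tested.

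The 4 genes of this list with the smallest p were lower by more than CAF1b and less than CAF1a. MYBR1 (AT5G67300), the stress regulator also called MYB44, stood at 925 and 1018 normalised counts in fip1-2 and at 2328 and 2637 in control, a log2 fold change of -1.35 ± 0.07 SE (limma adjusted p = 1.13e-09). TCH3, a touch-induced calmodulin-like gene, was at 263 and 298 in fip1-2 and at 766 and 862 in control, a log2 fold change of -1.53 ± 0.09 SE (limma adjusted p = 3.7e-09). The groups were well apart for both. The zinc finger genes STZ and ZAT6 had log2 fold changes of -1.50 and -1.46 (limma adjusted p = 2.35e-07 and 3.11e-07).

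The wide gap between the control libraries at CAF1a was shared by few of these genes. With a cutoff of 1.2 times, 3 of the 19 were higher in control replicate 1 and 0 in control replicate 2. They were STZ, at 521 in replicate 1 and 383 in replicate 2, ERF11, at 102 and 50.5, and RHL41, at 151 and 116, and ERF11 and RHL41 are named after their values were seen. In the other 16 genes, and in CAF1b, the control libraries differed by less than that.

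**Figure D5:**
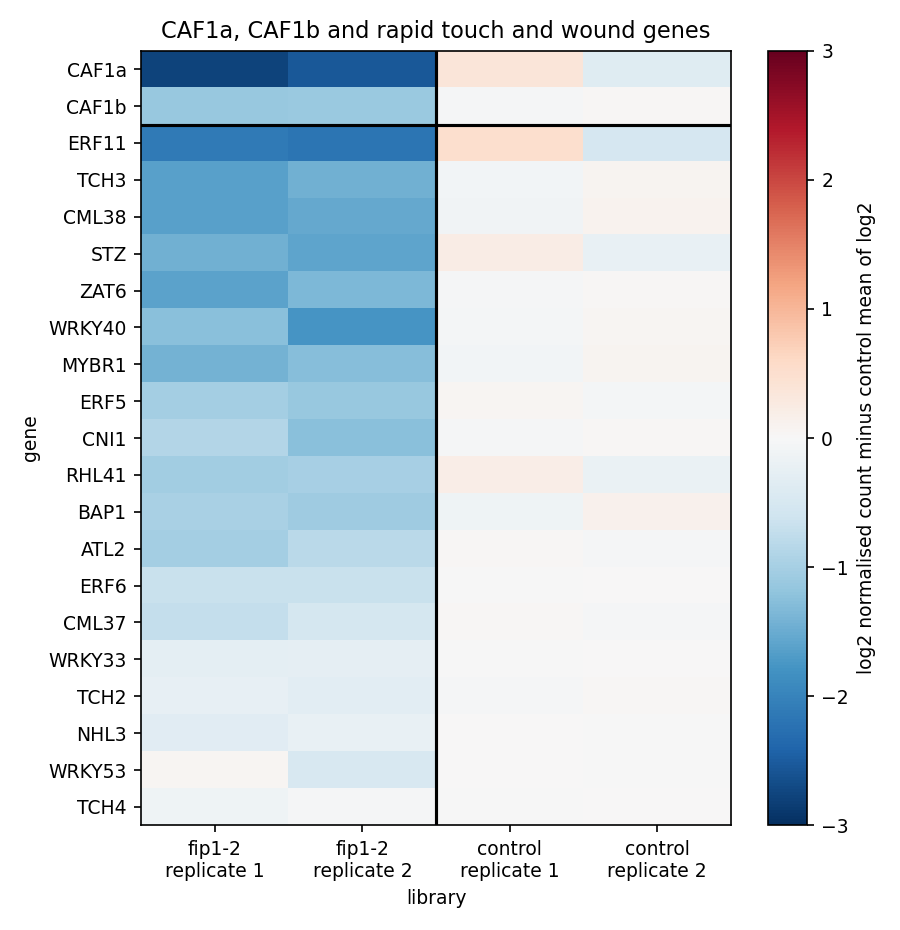
Log2 normalised count of CAF1a, CAF1b and 19 touch and wound response genes in each library, minus the gene's mean over the control libraries, as colour from blue (lower) to red (higher) with fip1-2 on the left. The fip1-2 columns are blue in CAF1a, CAF1b and the called genes, and CAF1a, ERF11, STZ and RHL41 are redder in control replicate 1 than in control replicate 2.

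The genes most like CAF1a were sought among 15179 others with a mean of at least 100, by the Euclidean distance between centred log2 profiles over the 4 libraries. The nearest was AT5G52790, a gene for a CBS domain protein, at a distance of 0.454, with 47.1 and 56.0 normalised counts in fip1-2 and 444 and 376 in control. Next came AT1G17860, for a Kunitz family protease inhibitor, at 0.484, with 342 and 422 in fip1-2 and 2065 and 1812 in control. AT1G05835, annotated as a PHD finger protein, followed at 0.512, AT1G56150, of the SAUR-like auxin-responsive family, at 0.532 and AT1G15125, for a methyltransferase, at 0.560. No touch or wound gene of the list was among these 5, whose log2 fold changes ran from -2.94 to -2.34. The distance depends on the size of the change, and the lowest log2 fold change of that list was -2.04, for ERF11. ERF11 itself was below the mean of 100 and no candidate. The absence of list genes therefore says little about how alike the patterns are.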

How the data were processed

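The deposited table holds a signal per gene: htseq-count read counts, per the file headers, which the authors divided by 1 size factor per library, as its values show. HTSeq, HISAT2, edgeR, FastQC and CASAVA 1.4 are named in the submitters' processing notes without a role; no genome build is named in the sources used here, so no coordinates or sequences are printed and the planned promoter description was not made. Every value (100%, tolerance 1e-06) was a whole multiple of the smallest value above 0 in its column, and these multiples were taken as whole reads.

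Genes with a mean of at least 10 were tested on log2(value + 2), as deposited, with limma 3.58.1 in R 4.3.3 (variance trend, genotype only, two-sided, Benjamini-Hochberg over 19931 genes, threshold 0.05). edgeR 4.0.16 on the whole reads called 10731 genes, 10670 of them shared with limma. DESeq2 1.42.0 was another alternative. The limma step was also run on simulated data with few changed genes, unlike these data, where 53.8% of the genes tested were called. That run does not show how often calls are false here. The members, the 8 related lists (66 genes) and the marker lists were chosen with earlier results of these data known, and lists have no test of their own. A gene of the planned lists is not reported here. The rule for named genes takes all members, up to 4 genes a list by smallest p, and the 5 genes nearest to CAF1a. Outside it, after their values were seen, ERF11, RHL41, CRU2, SOM, AT5G12850, TCH4, WRKY53, CML37, the adjacent genes and FIP1 were named. So were, for a change under an alternative, AT1G31500, AT1G07705, AT5G60170, AT2G28540, AT5G58620 and PUM3. Names, transcript lengths, GC content, gene order and coding identity come from the TAIR10.1 RefSeq annotation, looked up by identifier (27444 found). Read depth limits precision together with the spread between 2 libraries a group.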

Additional observations from a re-analysis of the deposited data

How the results depend on the processing

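Over 14 alternatives (pseudocounts of 0.5 and 8, no filter and a filter of 50, quantile normalization, edgeR, DESeq2, robust variance, the replicate block, the length and GC trend removed, and each library left out) the 8 members kept their direction in every case, and their calls changed in 1 of 112 cases, that of AHG2 with the trend removed (log2 fold change -0.33). The members called lower numbered 5, or 6 with that trend removed, and 1 was called higher throughout. DESeq2 called 3443 genes lower in all, against 5342 with limma. Deviations from the group mean in the libraries numbered 1 were nearly uncorrelated between the groups over genes (correlation of deviations 0.017). That value cannot show whether libraries of the same number were handled together. With the replicate block 11004 genes were called, 5 members lower and 1 higher, against 10726 genes without it. Among the other genes 828 values kept direction and call, 29 lost a call (most with DESeq2, the trend removed or a library left out), 5 gained one (AT5G60170, AT2G28540, PUM3 and AT5G58620 lower with the trend removed, TCH4 lower with quantile normalization) and 16 changed sign, all of genes not called except PAB4. With the trend removed they were -0.05 for AT3G58560, -0.06 for AT3G58580, 0.04 for AT1G31500, -0.04 for PAB4, -0.20 for PUM2 (called lower), -0.12 for PUM4 and -0.08 for PUM6. Over the left-out libraries the range crossed 0 for AT1G31500 (-0.10 to 0.06), AT1G07705 (-0.09 to 0.03), AT5G60170 (-0.06 to 0.01), AT2G28540 (-0.11 to 0.04), AT5G58620 (-0.16 to 0.00) and WRKY53 (-0.46 to 0.05). Quantile normalization gave -0.06 for ACD32.1. The cause was not tested. Over the left-out libraries CAF1a ran from -3.00 to -2.28 and AT1G06450 from 1.71 to 1.98.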
